A study of Homo sapiens with 5 samples.

Results

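The genes that build cholesterol and fatty acids were followed in human RPE1 cells after doxorubicin. The 32 genes were chosen by symbol, as the enzymes of the mevalonate and sterol pathways, the enzymes of fatty acid synthesis, the sterol regulatory element binding proteins (SREBP) with their regulators, and the lipid genes STARD4 and LPIN1. They are 32 of 26485 genes in the raw count table, and all 32 were among the 14187 genes that passed a filter on low counts.

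RPE1 is a widely used wild-type line from the pigment epithelium of the human retina, grown here in medium with fetal calf serum, which carries cholesterol. RNA-seq was performed on 5 libraries after 18 h with DMSO, the solvent control (2 libraries), 0.2 μM doxorubicin (2 libraries) or 0.34 μM doxorubicin (1 library). Doxorubicin is an anthracycline that poisons topoisomerase II, and the comparison asks how its presence changes mRNA levels.

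Cholesterol and fatty acids are made from acetyl-CoA. The SREBP factors are held in the endoplasmic reticulum by SCAP and the INSIG proteins when sterols are plentiful. When sterols fall, SCAP carries them to the Golgi, where they are cut, and the released fragment enters the nucleus and switches on the genes of the pathway. Many of these genes therefore often rise and fall together, INSIG1 among them, which closes a feedback loop.

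The promoters of a few of the genes are shown first, because SREBP acts through short DNA motifs. TM7SF2 and STARD4 are shown as the members with the clearest rises. HMGCS1 and INSIG1 are members that differed between the libraries of each condition. INSIG1 and SREBF2 hold an SREBP motif in the spelling searched. Each run is the 250 bases before the gene's start in RefSeq (GRCh38.p14), read 5′ to 3′ on the gene's strand. The positions are chr11:65111622-65111871 (plus strand) for TM7SF2, chr5:111512536-111512785 (minus strand) for STARD4, chr5:43313413-43313662 (minus strand) for HMGCS1, chr7:155297628-155297877 (plus strand) for INSIG1 and chr22:41832855-41833104 (plus strand) for SREBF2. Capitals mark the CCAAT box (CCAAT, or ATTGG on the other strand), the sterol regulatory element core TCACNCCAC and the SREBP E-box TCACGTGA.
TM7SF2: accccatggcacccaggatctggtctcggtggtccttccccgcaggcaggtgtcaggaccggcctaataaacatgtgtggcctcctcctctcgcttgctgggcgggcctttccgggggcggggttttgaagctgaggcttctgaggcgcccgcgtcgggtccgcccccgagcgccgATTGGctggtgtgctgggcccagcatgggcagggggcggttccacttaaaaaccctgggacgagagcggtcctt
STARD4: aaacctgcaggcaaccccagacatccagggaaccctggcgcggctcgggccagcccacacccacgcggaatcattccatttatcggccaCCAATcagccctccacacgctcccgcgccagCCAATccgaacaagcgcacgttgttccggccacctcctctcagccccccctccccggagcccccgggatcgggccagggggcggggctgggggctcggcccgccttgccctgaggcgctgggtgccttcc
HMGCS1: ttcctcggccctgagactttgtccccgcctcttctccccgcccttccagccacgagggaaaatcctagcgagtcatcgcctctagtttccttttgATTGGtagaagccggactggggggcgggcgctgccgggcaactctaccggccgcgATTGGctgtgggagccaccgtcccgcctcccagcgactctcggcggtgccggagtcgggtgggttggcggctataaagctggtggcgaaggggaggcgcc
INSIG1: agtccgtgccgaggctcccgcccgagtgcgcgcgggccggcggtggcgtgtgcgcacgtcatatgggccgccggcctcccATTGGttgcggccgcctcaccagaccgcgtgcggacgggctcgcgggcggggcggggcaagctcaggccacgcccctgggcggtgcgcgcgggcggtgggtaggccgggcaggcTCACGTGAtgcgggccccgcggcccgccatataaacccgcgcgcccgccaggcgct
SREBF2: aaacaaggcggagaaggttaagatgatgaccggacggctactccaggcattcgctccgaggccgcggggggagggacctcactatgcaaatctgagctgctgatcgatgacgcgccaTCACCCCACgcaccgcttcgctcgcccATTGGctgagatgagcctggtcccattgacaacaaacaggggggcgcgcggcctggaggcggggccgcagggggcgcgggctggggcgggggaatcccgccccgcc

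The motifs were searched on both strands in the same window of each gene with an entry, 28 of the 32 members and 10362 of the genes tested. A CCAAT box was found in 19 members (67.9%) and in 41.4% of the genes. The GC box GGGCGG was found in 27 members (96.4%) and in 73.3% of the genes. The core TCACNCCAC was found in SREBF2 alone among the members, where it reads TCACCCCAC (1.19% of the genes), and the E-box TCACGTGA in INSIG1 alone (1.93%). A match is a run of letters and no measured site. The search covered no other spelling of a motif and no sequence beyond this window, so a gene without a match may still hold a site.

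The libraries held between 23773061 and 36725345 counts on genes, and the members took 0.576% and 0.628% of them in DMSO, 0.545% and 0.528% at 0.2 μM and 0.492% at 0.34 μM. The p53 targets CDKN1A and MDM2, used as a check of the treatment, had log2 fold changes of 3.39 and 2.19 and passed the threshold, and GDF15, at 3.60 from very few counts, did not (adjusted p = 0.0191 in edgeR's quasi-likelihood test). The labelled cell type was held against its markers. MITF and OTX2 of the pigment epithelium were expressed, as were all 6 markers of the line's epithelial and mesenchymal state, while RPE65, RLBP1, TYR, TYRP1, DCT and TTR stayed at 8 counts or fewer in every library. The lowly expressed markers PMEL, BEST1 and RDH5 were higher in each doxorubicin library than in DMSO. Their log2 fold changes were 2.29, 1.88 and 1.07, and none passed the threshold. SERPINF1, also low, went the other way at -1.04, and its treated and control libraries overlapped. LRAT, too low to be tested, stayed at 4 reads or fewer after treatment, below the 6 and 25 of the control libraries. MITF and OTX2 hardly moved, at 0.05 and -0.02. Of the line's markers, KRT8, KRT7, KRT18 and FN1 were at 0.87, 0.68, 0.63 and 0.25, and VIM and CDH2 at -0.23 and -0.25. None of these passed the threshold. KRT8 and KRT18 were higher, and VIM lower, in each doxorubicin library than in DMSO. A list of 5 blood markers summed to between 0.191 and 0.274 CPM in DMSO and between 1.01 and 2.41 CPM in doxorubicin, with CD3E and HBB at 0 everywhere, and nearly all of it was PTPRC. The part of these markers in the results was not tested.

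Most members did not pass the test of doxorubicin against DMSO. Levels are in CPM, counts relative to the library size as scaled by edgeR's TMM method, and fold changes are the 3 doxorubicin libraries over the 2 DMSO libraries. At an adjusted p of 0.01 (edgeR's quasi-likelihood test, Benjamini-Hochberg over all 14187 genes), 1 of 32 members (3.12%) passed, against 4.02% of all genes tested. TM7SF2 was that member and was higher, as 1.29% of all genes were, and 0 members were lower, as 2.73% of all genes were. At an unadjusted p of 0.05, 11 members passed (34.4%), against 30.8% of all genes, 3 of them higher (15.2% of all genes) and 8 lower (15.6% of all genes). The balance rested on single libraries. With DMSO replicate 2 left out it turned, with more members higher than lower at this p, and with DMSO replicate 1 left out more were lower. Either fit has 1 DMSO library. Without DMSO replicate 1 the fold changes were above 0 in 10 members and below 0 in 22, beside 7716 and 6834 of all genes. Without DMSO replicate 2 they were above 0 in 17 members and below 0 in 15, beside 7449 and 7197 of all genes. With replicate 1 of 0.2 μM left out 2 members were higher and 5 lower at this p, where 1533 of 13957 genes were higher and 1576 lower (22.3% in all). With replicate 2 of 0.2 μM left out 5 were higher and 10 lower, where 2249 of 13989 genes were higher and 2355 lower (32.9% in all). Leaving out the 0.34 μM library gave 2 and 2, where 1296 of 13891 genes were higher and 1377 lower (19.2% in all). The DMSO and doxorubicin libraries did not overlap in 13 members (40.6%), against 47.7% of all genes. In 3 of these the doxorubicin libraries were higher (24.3% of all genes) and in 10 they were lower (23.4% of all genes). The median log2 fold change of the members was 0.03, with 17 above 0 and 15 below, beside 0.01 for all genes. It turned to -0.22 without DMSO replicate 1, to -0.09 without replicate 1 of 0.2 μM and to -0.19 without replicate 2 of 0.2 μM. The RNA is bulk RNA, in which fewer cells of a type and less RNA per cell cannot be told apart.

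**Figure D1:**
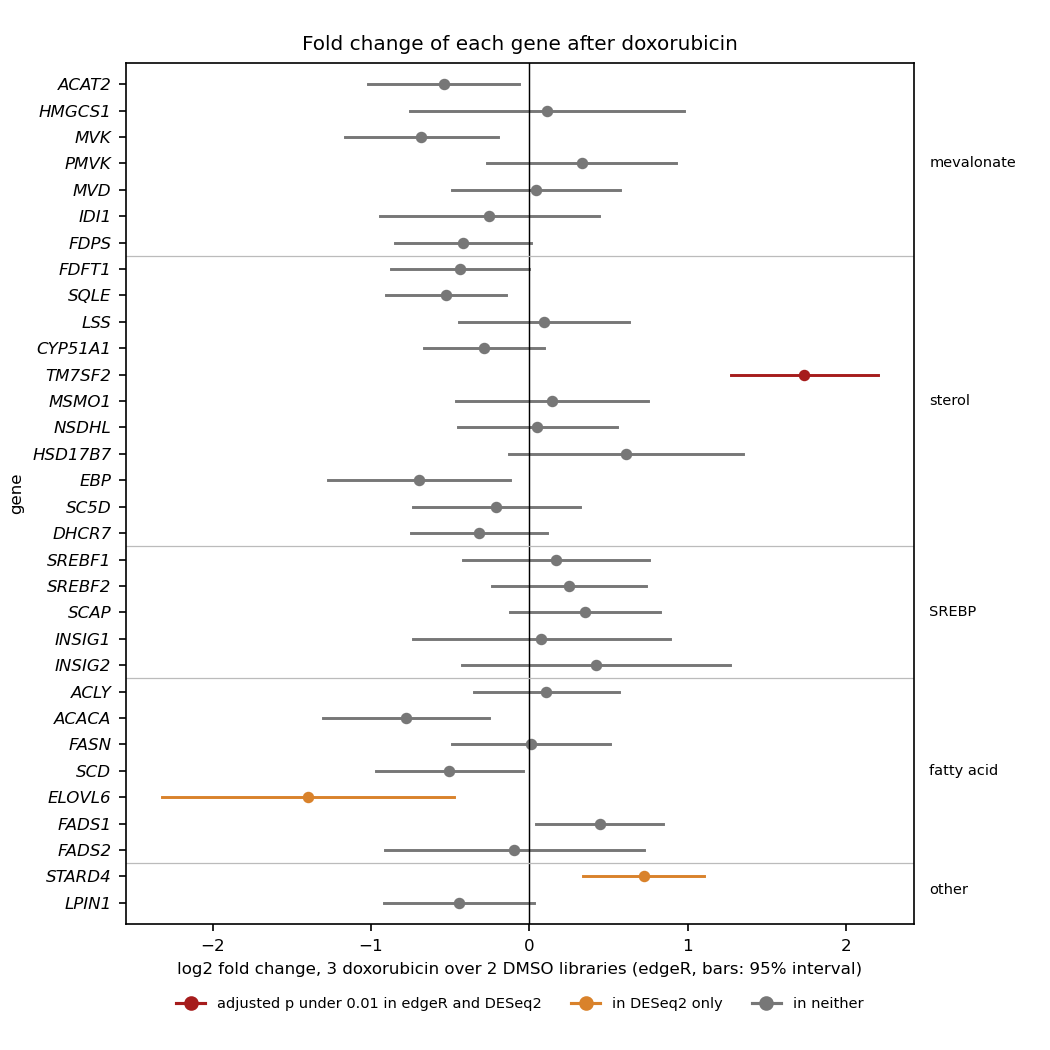
Log2 fold change of each of the 32 genes (x axis, 3 doxorubicin over 2 DMSO libraries), with bars for the 95% interval from the edgeR fit. Colours mark an adjusted p under 0.01 in edgeR and DESeq2, in DESeq2 only, or in neither. TM7SF2 lies alone at 1.74, and the interval of ELOVL6, at -1.40, is the widest of those that do not cross 0.

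TM7SF2 encodes a sterol C14 reductase, which acts just after the C14 demethylase CYP51A1 in cholesterol synthesis. The gene lies at chr11:65111872-65116230 (GRCh38) and overlaps no other annotated gene. Its level was 14.0 and 19.2 CPM in DMSO, 52.6 and 54.9 CPM at 0.2 μM and 58.9 CPM at 0.34 μM. The 3 doxorubicin libraries were all far above the DMSO libraries, and both concentrations gave about the same level. The mean rose from 16.6 ± 3.67 CPM (SD, n = 2) to 55.5 ± 3.17 CPM (SD, n = 3), a 3.33-fold rise. The log2 fold change was 1.74 (standard error 0.19, 95% interval 1.27 to 2.20, adjusted p = 0.00336 in edgeR's quasi-likelihood test). DESeq2 and limma voom gave adjusted p-values of 1.29e-13 and 0.00309, and TM7SF2 was also the single member past the threshold with limma voom (3.71% of all genes). Leaving out 1 library at a time gave log2 fold changes of 1.52 and 1.96 without DMSO replicate 1 or 2, 1.78 and 1.75 without replicate 1 or 2 of 0.2 μM and 1.69 without the 0.34 μM library. The adjusted p of edgeR was between 0.0112 and 0.0165 in these 5 fits, just over the threshold.

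STARD4, a carrier that moves cholesterol between membranes, was the next clearest rise. It lies at chr5:111496033-111512535 and shares part of its span with STARD4-AS1, whose reads could be included in its counts. Its level was 64.2 and 60.5 CPM in DMSO, 97.4 and 118 CPM at 0.2 μM and 93.5 CPM at 0.34 μM. All doxorubicin libraries were above both DMSO libraries. The log2 fold change was 0.72 (standard error 0.16, 95% interval 0.34 to 1.10), and its adjusted p was 0.0310 in edgeR's quasi-likelihood test and 0.0322 in limma voom, over the threshold in both. It passed with DESeq2, with an adjusted p of 0.00106. With 1 library at a time left out, its log2 fold change in edgeR lay between 0.62 and 0.79.

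ELOVL6, which lengthens saturated and monounsaturated fatty acids, moved the other way. The gene lies at chr4:110045846-110199202 and overlaps the pseudogene RN7SL275P. Its level was 56.5 and 101 CPM in DMSO, 23.6 and 45.2 CPM at 0.2 μM and 20.8 CPM at 0.34 μM. Each doxorubicin library was below each DMSO library, but the libraries of one condition also lay far apart. The mean was 78.6 ± 31.3 CPM (SD, n = 2) in DMSO and 29.9 ± 13.4 CPM (SD, n = 3) in doxorubicin, 38.0% of the DMSO level in the fit. The log2 fold change was -1.40 (standard error 0.39, 95% interval -2.32 to -0.47, adjusted p = 0.0594 in edgeR's quasi-likelihood test). It passed with DESeq2, at an adjusted p of 0.00372, so that DESeq2 called 3 of 32 members, where it called 14.9% of all genes. TM7SF2 and STARD4 were the 2 higher members (6.72% of all genes) and ELOVL6 the 1 lower member (8.18% of all genes). For ELOVL6 the log2 fold change in edgeR lay between -1.82 and -0.94 with 1 library at a time left out. The smallest fall came without DMSO replicate 2.

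**Figure D2:**
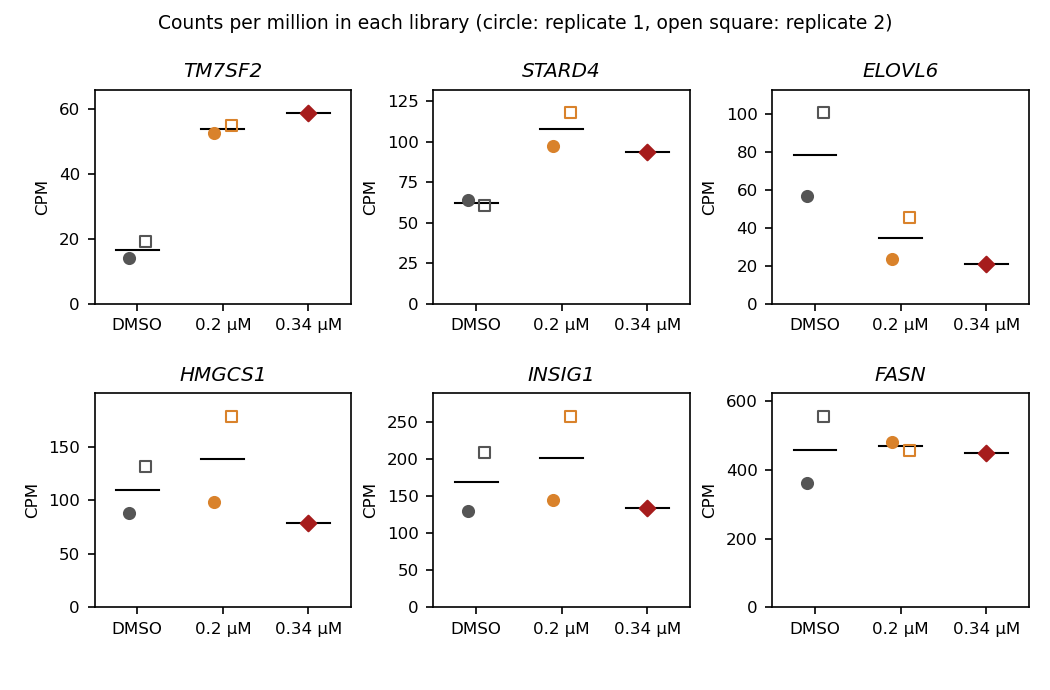
Level in CPM (y axis, from 0) of 6 genes in each of the 5 libraries, with circles for replicate 1, open squares for replicate 2, a diamond for the lone 0.34 μM library and bars for the mean of a condition. The doxorubicin libraries stand clear of DMSO in TM7SF2, STARD4 and ELOVL6, while HMGCS1 and INSIG1 follow the replicate and FASN stays within the DMSO range.

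Next, the members were taken in the order of the pathway. In the mevalonate branch, which turns acetyl-CoA into the isoprenoid farnesyl diphosphate, 0 of 7 genes passed the threshold in edgeR or DESeq2. At an unadjusted p of 0.05, 2 passed (28.6%, against 30.8% of all genes), both lower (15.6% of all genes). The median log2 fold change was -0.25. The median was -0.39 without DMSO replicate 1, -0.13 without DMSO replicate 2, -0.13 and -0.45 without replicate 1 and replicate 2 of 0.2 μM, and -0.08 without the 0.34 μM library. Without DMSO replicate 2, which leaves 1 DMSO library, the balance at an unadjusted p of 0.05 turned to higher. The thiolase ACAT2 began the branch with a log2 fold change of -0.54. HMGCS1, which makes HMG-CoA, stood at 0.11, with a 95% interval of -0.76 to 0.98. The kinases MVK and PMVK, which phosphorylate mevalonate in turn, were at -0.68 and 0.33. The decarboxylase MVD, the isomerase IDI1 and the farnesyl diphosphate synthase FDPS were at 0.04, -0.25 and -0.42. The doxorubicin libraries lay below both DMSO libraries in ACAT2, MVK and FDPS.

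MVK had 18.9 and 25.8 CPM in DMSO, 15.3 and 12.6 CPM at 0.2 μM and 13.8 CPM at 0.34 μM. It was lower in each doxorubicin library, with an adjusted p of 0.0708 in edgeR's quasi-likelihood test. MVK shares part of its span with MMAB, and ACAT2 with SOD2 and TCP1. FDPS and IDI1 have processed copies in the genome, 10 and 3 of them, so that reads could be divided with these.

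Squalene synthase, FDFT1, commits farnesyl diphosphate to sterols, and SQLE then makes squalene epoxide, an important control point. Their log2 fold changes were -0.44 and -0.53, and neither overlapped between the treatments. SQLE had 88.0 and 74.2 CPM in DMSO, 62.3 and 56.0 CPM at 0.2 μM and 50.8 CPM at 0.34 μM. The doxorubicin libraries were lower than both DMSO libraries, with an adjusted p of 0.0734 in edgeR's quasi-likelihood test. The cyclase LSS, which forms lanosterol, was at 0.09, and the demethylase CYP51A1 at -0.29. CYP51A1 has 3 pseudogene copies and HSD17B7, a later enzyme, has 2, so that their counts are less certain.

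The later sterol enzymes had fold changes on both sides of 0. MSMO1 and NSDHL, which remove the C4 methyl groups, were at 0.14 and 0.05, and HSD17B7, the ketoreductase of the same steps, at 0.61. EBP, which shifts the double bond of the sterol ring, was at -0.70, with 24.3 and 33.8 CPM in DMSO, 17.2 and 22.1 CPM at 0.2 μM and 14.5 CPM at 0.34 μM. Its doxorubicin libraries were all below DMSO (adjusted p = 0.105 in edgeR's quasi-likelihood test). The desaturase SC5D and the last reductase DHCR7 were at -0.21 and -0.32. Over the 11 sterol genes the median was -0.21, with 5 above 0 and 6 below. It was -0.29 and -0.09 without DMSO replicate 1 and 2, -0.12 and -0.27 without replicate 1 and 2 of 0.2 μM and -0.09 without the 0.34 μM library. In this group TM7SF2 was the single member past the threshold.

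The 5 genes of the SREBP system had fold changes above 0 with all libraries, and 0 of them passed the threshold in edgeR or DESeq2 or an unadjusted p of 0.05. These were SREBF1 at 0.17 and SREBF2 at 0.25, which encode the factors, SCAP at 0.35, and INSIG1 and INSIG2 at 0.08 and 0.42. In every one the treated and control libraries overlapped. SREBF2 had 209 and 182 CPM in DMSO, 267 and 181 CPM at 0.2 μM and 249 CPM at 0.34 μM. SCAP had 61.9 and 68.2 CPM in DMSO, 91.4 and 64.4 CPM at 0.2 μM and 93.5 CPM at 0.34 μM. In SREBF1, SREBF2, SCAP and INSIG2, replicate 1 of 0.2 μM and the 0.34 μM library were above both DMSO libraries, and replicate 2 of 0.2 μM was not. The median of the 5 genes was 0.25. Without replicate 2 of 0.2 μM it was 0.40, with INSIG1 below 0, at -0.28. In that fit 3 of the 5 genes were higher at an unadjusted p under 0.05, where 2249 of 13989 genes were higher (32.9% in either direction). Without DMSO replicate 1 INSIG1 was also below 0, at -0.24, and without DMSO replicate 2 the median was 0.15. INSIG1 had the lowest fold change of the group, and its 95% interval ran from -0.74 to 0.89.

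Fatty acid synthesis was split among its enzymes. ACLY, which supplies cytosolic acetyl-CoA, and the synthase FASN were at 0.11 and 0.01, and the interval of FASN was -0.49 to 0.51. ACACA, the carboxylase that makes malonyl-CoA between them, was at -0.78, 58.3% of the DMSO level. It had 147 and 222 CPM in DMSO, 109 and 122 CPM at 0.2 μM and 90.9 CPM at 0.34 μM, with no overlap. Its adjusted p was 0.0626 in edgeR's quasi-likelihood test and 0.0127 in DESeq2, over the threshold in both.

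The stearoyl-CoA desaturase SCD had 2367 and 1830 CPM in DMSO, 1689 and 1328 CPM at 0.2 μM and 1414 CPM at 0.34 μM. Each doxorubicin library was below DMSO, with a log2 fold change of -0.51 and an adjusted p of 0.134 in edgeR's quasi-likelihood test. SCD has a pseudogene copy, SCDP1. FADS1 and FADS2, the desaturases of polyunsaturated fatty acids, were at 0.44 and -0.09. FADS1 was higher in all doxorubicin libraries, with 231 and 256 CPM in DMSO against 303, 379 and 312 CPM, and its adjusted p was 0.128 in edgeR's quasi-likelihood test. The genes of this pair overlap at their ends, and it is not known whether reads were counted by strand. With ELOVL6, the 7 genes had 3 fold changes above 0 and 4 below, and a median of -0.09. It was -0.27 and -0.40 without DMSO replicate 1 and 2, -0.33 without replicate 1 of 0.2 μM, 0.03 without replicate 2 of 0.2 μM and -0.13 without the 0.34 μM library. The lipid phosphatase and coregulator LPIN1 was at -0.45.

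Next, the libraries of the same condition were compared. The larger of the replicate differences, in DMSO or at 0.2 μM, exceeded the treatment change in 19 of 32 members (59.4%), near the 60.2% of all genes. Replicate 2 was above replicate 1 in both DMSO and 0.2 μM doxorubicin in 18 members (56.2%), and in 30.6% of all genes. It was below replicate 1 in both in 6 members (18.8%), and in 27.9% of all genes, and the sign differed between the conditions in the other 8 members. The median difference of the members was 0.39 in DMSO and 0.12 at 0.2 μM on the log2 CPM scale, beside 0.01 and 0.02 for all genes.

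Differences over 0.5 in both conditions, with the same sign, were seen in 6 members (18.8%) and in 12.7% of all genes. HMGCS1, INSIG1, HSD17B7 and ELOVL6 were higher in replicate 2. HMGCS1 had 88.1 and 132 CPM in DMSO, 98.6 and 178 CPM at 0.2 μM and 79.1 CPM at 0.34 μM. INSIG1 had 130 and 209 CPM in DMSO, 145 and 258 CPM at 0.2 μM and 134 CPM at 0.34 μM. In both genes the replicate 2 libraries of the control and of the treated cells stood above the other 3 libraries, which lay close together.

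INSIG2 and FADS2 had the opposite order. INSIG2 had 22.3 and 12.9 CPM in DMSO, 27.3 and 14.8 CPM at 0.2 μM and 28.5 CPM at 0.34 μM. FADS2 had 464 and 293 CPM in DMSO, 465 and 219 CPM at 0.2 μM and 379 CPM at 0.34 μM. For these genes too the replicate 2 libraries stood apart, at the low end. TM7SF2 was not of this kind, with replicate differences of 0.45 in DMSO and 0.06 at 0.2 μM on the log2 scale.

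The replicate 2 libraries also differed in markers of other cells. The 4 endothelial markers summed to 2.06 and 6.11 CPM in DMSO, 2.20 and 7.90 CPM at 0.2 μM and 2.40 CPM at 0.34 μM. CDH5 had 56 and 69 counts in replicate 2 and 5 or fewer elsewhere, and KDR 89 and 105 against 31 to 45. VWF did not follow, with 5 and 5 counts in DMSO, 15 and 5 at 0.2 μM and 24 at 0.34 μM. PECAM1 had 3 and 6 counts in DMSO, 7 and 11 at 0.2 μM and 13 at 0.34 μM. The summed 6 markers of the line were lower in replicate 2, at 15788 and 17538 CPM, than in the other libraries, at 25682 to 26483 CPM. FN1 carried most of this difference in the sum, with 19193 and 9080 CPM in DMSO, 19659 and 11510 CPM at 0.2 μM and 19325 CPM at 0.34 μM. KRT7 was also lower in replicate 2, with 28.1 and 13.4 CPM in DMSO and 41.5 and 17.6 CPM at 0.2 μM. So were KRT8, KRT18 and CDH2 in both conditions, by smaller steps. VIM had 5796 and 5805 CPM in DMSO and 5227 and 4711 CPM at 0.2 μM. The part of these markers was not looked at singly. The part of the endothelial and line markers in the replicate differences was not tested.

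**Figure D3:**
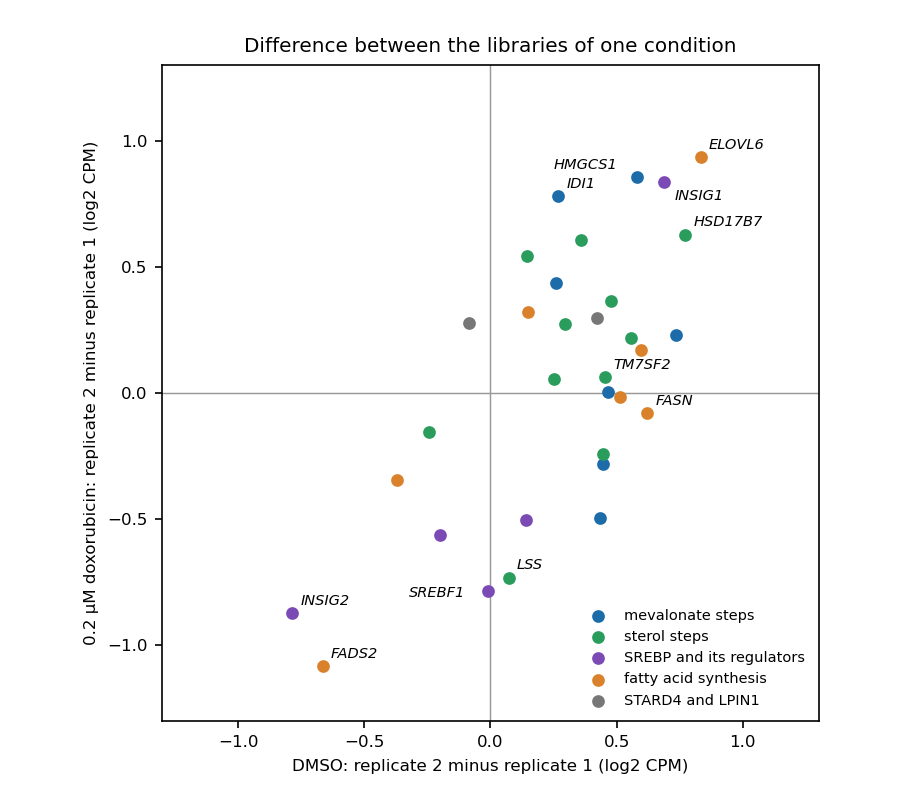
Difference between replicate 2 and replicate 1 on the log2 CPM scale for each member, in DMSO (x axis) and at 0.2 μM doxorubicin (y axis), coloured by group. Of the 32 genes, 18 lie above 0 on both axes and 6 below 0 on both, with ELOVL6, INSIG1 and HMGCS1 at the top and FADS2 and INSIG2 at the bottom.

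The concentrations were then set side by side in a fit of 3 conditions, in which the spread of the lone 0.34 μM library is taken from the other conditions and both comparisons use the same DMSO libraries. No member passed the threshold at 0.2 μM (1.21% of all genes) or at 0.34 μM (0.627% of all genes) in edgeR's quasi-likelihood test. At an unadjusted p of 0.05, 5 members passed at 0.2 μM (19.3% of all genes) and 5 at 0.34 μM (17.8% of all genes). With DESeq2, 1 member passed at 0.2 μM and 2 at 0.34 μM, where 6.98% and 6.12% of all genes did. The log2 fold changes over DMSO at 0.2 and 0.34 μM were 1.69 and 1.82 for TM7SF2, 0.79 and 0.59 for STARD4 and -1.19 and -1.92 for ELOVL6.

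In the direct comparison of 0.34 with 0.2 μM no member passed an adjusted p of 0.01 or an unadjusted p of 0.05, while 22 of all genes passed the latter and 0 the former. The difference was -0.73 (standard error 0.50) for ELOVL6 and 0.13 (standard error 0.30) for TM7SF2. It was below 0 in 24 of 32 members, with a median of -0.18, and in 7539 of 14187 genes, with a median of -0.02. The largest were HMGCS1, at -0.81, and ELOVL6, and both rested on replicate 2 of 0.2 μM. On the log2 CPM scale the 0.34 μM library differed from replicate 2 by -1.17 for HMGCS1 and -1.12 for ELOVL6, and from replicate 1 by -0.32 and -0.18. Without replicate 2 of 0.2 μM the lowest difference of any member was -0.39. The 0.34 μM library was closer to replicate 1 than to replicate 2 of 0.2 μM in 23 members (71.9%) and in 73.8% of all genes.

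**Figure D4:**
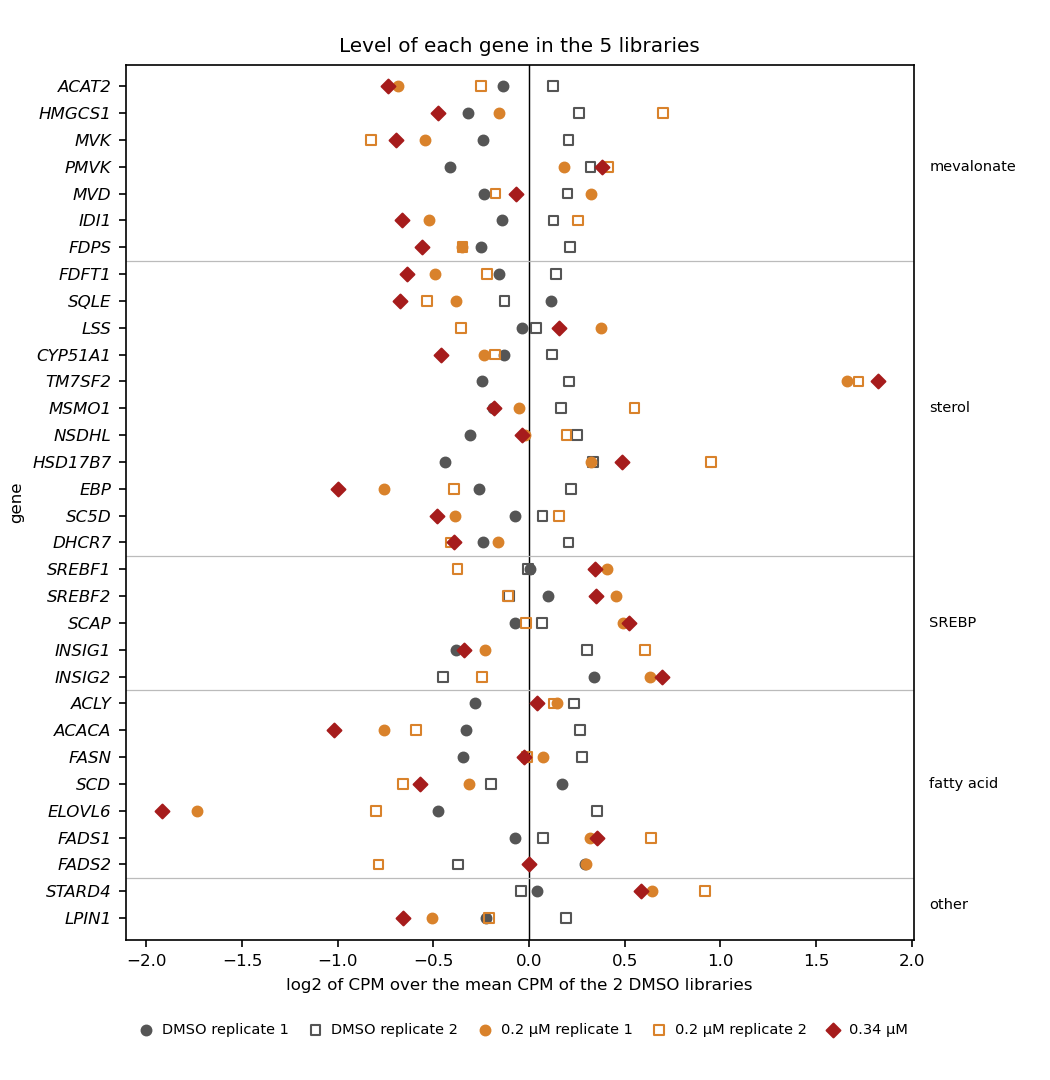
Log2 of the CPM in each library over the mean of the DMSO libraries (x axis) for each of the 32 genes (y axis), with the 2 DMSO libraries, the 2 libraries of 0.2 μM and the 0.34 μM library as separate marks. The marks of treatment separate in TM7SF2, STARD4 and ELOVL6, and those of replicate 2 stand apart from the other libraries in HMGCS1, INSIG1, INSIG2 and FADS2.

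Neighbouring lipid pathways were counted in the same fit. Of 86 further genes 80 were tested, and 5 passed the threshold (4.02% of all genes), 2 higher (1.29% of all genes) and 3 lower (2.73% of all genes). Of these, 1 passed without DMSO replicate 1, 1 without replicate 1 of 0.2 μM, and 0 when any of the other 3 libraries was left out. ICMT, COQ2 and ELOVL5 passed in 0 of the 5 fits. ABCA1, which exports cholesterol from the cell, rose from 46.7 and 43.8 CPM in DMSO to 120 and 151 CPM at 0.2 μM and 161 CPM at 0.34 μM (log2 fold change 1.67, standard error 0.18, adjusted p = 0.0031 in edgeR's quasi-likelihood test). FADS3, which lies in the same gene family as FADS1 and FADS2, rose from 66.5 and 45.3 CPM in DMSO to 170, 167 and 199 CPM (log2 fold change 1.67, standard error 0.21, adjusted p = 0.00519 in the same edgeR test). In both genes every doxorubicin library was far above DMSO.

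The 3 falls were in ICMT, COQ2 and ELOVL5. ICMT, which methylates prenylated proteins, fell from 209 and 250.2 CPM in DMSO to 112, 109 and 103 CPM (log2 fold change -1.09, adjusted p = 0.00625 in edgeR's quasi-likelihood test). COQ2, which joins the isoprenoid tail to the ring of coenzyme Q, fell by 1.27 on the log2 scale (adjusted p = 0.00979 in the same edgeR test). ELOVL5, which lengthens polyunsaturated fatty acids, fell by 1.01 on the log2 scale (adjusted p = 0.00719 in the same edgeR test).

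By group, 2 of 15 isoprenoid genes passed and were lower (2.73% of all genes). Of 9 genes of SREBP processing and sterol-linked degradation 0 passed. At an unadjusted p of 0.05, 2 of these 9 passed (30.8% of all genes), and 1 passed with DESeq2 (14.9% of all genes). Of 24 genes of other fatty acid and glycerolipid synthesis 1 was higher (1.29% of all genes) and 1 lower (2.73% of all genes). Of 12 genes of cholesterol export and storage 1 was higher (1.29% of all genes). Of 20 genes of fatty acid oxidation 0 passed in edgeR, with 5 at an unadjusted p of 0.05, all higher (15.2% of all genes). Of these 20, 14 had fold changes above 0 and the median was 0.23. DESeq2 called 4 of the oxidation genes, all higher (6.72% of all genes).

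**Figure D5:**
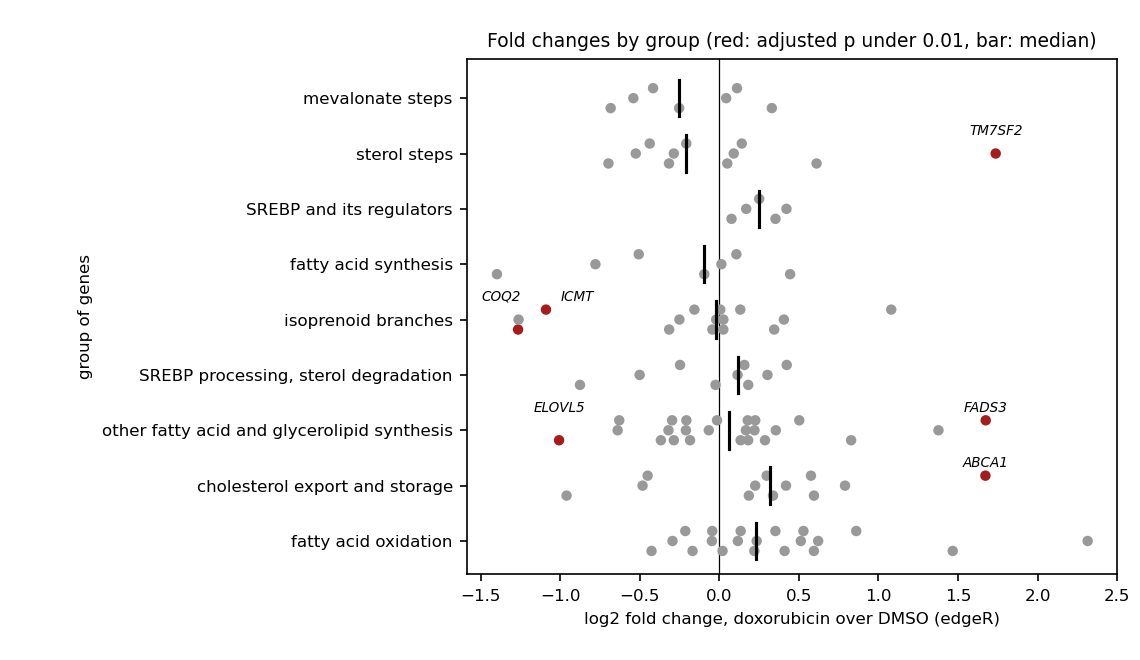
Log2 fold change of doxorubicin over DMSO (x axis) for the members in 4 groups (without STARD4 and LPIN1) and the further lipid genes in 5 groups, with a bar at each median and in red the genes with an adjusted p under 0.01 in edgeR. In red, TM7SF2, ABCA1 and FADS3 lie between 1.67 and 1.74 and COQ2, ICMT and ELOVL5 between -1.27 and -1.01, while grey points on either side lie farther out, at 2.32 and -1.40.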

How the data were processed

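Poly-A RNA of 5 RPE1 libraries was sequenced from stranded libraries, mapped to hg38 with STAR and counted per gene with featureCounts of Rsubread. The authors deposited these counts without normalization, with 23773061 to 36725345 counts per library. For the mapping tools no version, and for the counting no strand setting, is given in the sources used here. A second table, with fold changes and p-values of the authors' own DESeq2 comparison, was not used. The treatment text of the labels gives far higher concentrations than the sample labels, which were followed.

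The analysis used edgeR 4.0.16 under R 4.3.3 (TMM, minimum count of 10 and total of 15, quasi-likelihood test of 3 doxorubicin against 2 DMSO libraries, threshold 0.01 after Benjamini-Hochberg adjustment). A standard error is the log2 fold change over the square root of F. Log2 CPM used a prior count of 2. DESeq2 1.42.0 and limma 3.58.1 (voom) were alternatives, with other scalings, no filter, thinned counts, 0.2 μM alone, a replicate block and each library left out. The code was tested on simulated data.

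The members and lists were chosen with earlier results of these data known. Members past the threshold in edgeR or DESeq2 are given in full and the other members by fold change. Further lipid genes are named where edgeR called them. Library values of other members, and the markers named singly, were chosen after their values were seen. Libraries of one condition differed by far more than sampling noise (chi-square per degree of freedom 117 in DMSO and 75.3 at 0.2 μM). The labels do not say whether they are separate cultures, so p-values measure only the spread between these libraries.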

Additional observations from a re-analysis of the deposited data

How the results depend on the processing

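TM7SF2 remained the only member called, at a log2 fold change near 1.74, with RLE or upper quartile scaling, without a filter, with thinned counts and with limma voom. DESeq2 called 3 members (2 higher and 1 lower) and 12 of the 80 further lipid genes tested, where it called 14.9% of all genes. In edgeR 1 and 5 passed, where 4.02% of all genes did. At an adjusted p of 0.05 edgeR called 2 members, both higher (13.6% of all genes), and 11 further genes. With 0.2 μM alone, or as a contrast in the fit of 3 conditions, 0 members and 0 further genes passed, where TM7SF2 had an adjusted p of 0.0165 in edgeR. Leaving out each library in turn gave 0 to 0 members, 0 to 0 of them higher, and 0 to 1 further genes; it lowered the genome-wide count from 571 to between 49 and 215. By concentration, DESeq2 called 1 member at 0.2 μM (6.98% of all genes). Without replicate 1 of 0.2 μM the highest log2 fold change of a member at 0.34 μM was 1.84 in edgeR, beside 1.82 with all libraries. The cause of these shifts was not tested.

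A replicate block could be fitted only to 2 pairs, which share a number and no stated origin. The differences between replicates in DMSO and at 0.2 μM correlated over 14187 genes (r = 0.528, genes not being independent). With the block 2 members passed, TM7SF2 and, lower, ELOVL6 (1 lower, log2 fold change -1.20), as did 8 further genes, where 8.99% of all genes did. Without the filter the median of all genes moved to 0.15. No member that passed in edgeR or DESeq2 changed direction. With 2 or 3 libraries a group, the 95% intervals of single genes limit what can be told.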
